A study of Mus musculus with 4 samples.

Results

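The dorsal striatum spots described here are 1789 of 12601 positions on coronal mouse brain sections, chosen by the level of 7 genes. Each spot with at least 500 counts was scaled to 10000 counts, log-transformed, and expressed as a z-score over all such spots. A spot was taken as dorsal striatum where the mean z of Ppp1r1b, Rgs9, Pde10a, Scn4b and Adora2a was at least 0.8 and the mean z of Pdyn and Crym was below 1. These 7 genes define the spots and are not results. Spatial gene expression was measured with the Visium CytAssist assay for FFPE tissue, version 2, on brains fixed in formalin and embedded in paraffin. The labels list 2 wild type mice and 2 Celsr3 heterozygous mice, without treatment. The allele of Celsr3, the strain, the age and the sex are not given in the sources used here, and each mouse gave 1 sample. Celsr3 encodes an adhesion receptor of the cadherin family, and the design sets heterozygous against wild type sections that contain the striatum.

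The table joins all spots, and the ending of a spot name divides them into 4 barcode sets. No ending matches a sample name, genotype or replicate number, so 0 sets could be tied to a mouse. The genotypes were therefore not compared. Each set is reported by itself, with no test between genotypes. Where a ranking or plot needed 1 value a gene, the lowest or the median over the sets was used. Intervals are 95% intervals and cover counting error only, not differences between animals. Among kept spots there were 4743 distinct barcodes. All 4 sets held 1613 of them, and 0 were repeated within a set. Of the 1507 barcodes of dorsal striatum spots, 267 marked a dorsal striatum spot in more than 1 set and 0 did so in all 4.

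The dorsal striatum, or caudate putamen, is built mostly of spiny projection neurons that use GABA. Those of the direct pathway carry the dopamine receptor Drd1 and the peptide gene Tac1, and those of the indirect pathway carry Drd2, Adora2a and Penk. Dopamine receptors act there through a striatal adenylyl cyclase, Adcy5, and the phosphoprotein Ppp1r1b (DARPP-32). A small share of cells are interneurons that use acetylcholine, somatostatin or parvalbumin, and bundles of myelinated axons cross the tissue. A spot is a small region that can hold several of these cells, and a change in the number of cells of a type cannot be told apart from a change in RNA per cell.

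The share of kept spots that were dorsal striatum spots differed between the sets. It was 13.7% in set 1 (420 spots, interval 12.5 to 15.0%), 18.6% in set 2 (523 spots, 17.2 to 20.1%), 18.8% in set 3 (646 spots, 17.5 to 20.1%) and 6.07% in set 4 (200 spots, 5.28 to 6.94%). Set 4 was lowest. It was also shallowest, with a median of 23270 counts per dorsal striatum spot, against 46582.5, 33873 and 40275.5 in sets 1, 2 and 3. With each spot thinned to 10000 counts, the shares were 15.7, 20.3, 20.5 and 7.87%. Within the dorsal striatum spots, Pdyn, the prodynorphin gene, stood at 66.1, 70.2 and 60.6 CPM (its counts per 1000000 counts, summed over spots) in sets 1 to 3 and at 197 in set 4. Crym, a thyroid hormone binding protein gene, stood at 53.4, 42.5 and 47.5 CPM and at 9.75 in set 4. Both genes entered the rule, and with z-scores taken within each set the share of set 4 was 9.11%.

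The definition has a threshold on the 5 markers and one on Pdyn and Crym. Over all sets, 32 dorsal striatum spots had a marker z between 0.8 and 0.9. Below the threshold, 54 kept spots had one between 0.7 and 0.8, whatever their level of Pdyn and Crym. The limit on Pdyn and Crym was thus applied only to the former. Those just inside held 2398 CPM of Ppp1r1b and 201 CPM of Adora2a, and those just outside held 2393 and 159 CPM. Within 0.1 of the threshold on Pdyn and Crym lay 129 dorsal striatum spots, 33, 22, 41 and 33 in sets 1 to 4, and 127 spots on the other side, 34, 25, 33 and 35. Set 4 had 33 such members among its 200. The median marker z of dorsal striatum spots was 1.84, 1.80, 1.83 and 1.72 in sets 1 to 4.

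Striatal genes that the definition did not use were also high. Drd2, Drd1, Penk and Tac1 were all at least 2-fold higher in the dorsal striatum spots than in all other spots in every set. Since the spots were chosen for striatal genes, these contrasts are descriptions. A gene is called higher or lower below where its level differed at least 2-fold in the same direction in all 4 sets, leaving out genes whose mean was under 10 CPM. Of 10055 such genes, 263 were higher (2.62%) and 561 were lower (5.58%). With TMM scaling 322 were higher and 484 lower, and with RLE scaling 357 and 430. Nothing is read from these shares, since the contrast chose the spots. The 5 marker genes are among the 263, and the gene lists below hold none of the 7 defining genes.

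Genes of the direct pathway were mostly higher. Of 8 listed genes, 5 were higher and 0 were lower, with a median ratio of 3.54 against 0.951 over all genes tested. Drd1, the dopamine D1 receptor, stood at 58.4, 55.9, 61.1 and 50.7 CPM in sets 1 to 4. Its counting intervals overlapped except in sets 3 (58.2 to 64.2) and 4 (44.4 to 57.5). Its ratio to all other spots was 6.57, 6.38, 7.70 and 6.995. Tac1, which encodes the precursor of substance P, stood at 475, 514, 350 and 414 CPM, with ratios of 4.97 to 5.73. Chrm4, an inhibitory muscarinic receptor gene, stood at 91.5, 180, 102 and 170 CPM, with ratios of 3.48 to 4.49. Slc35d3, which takes part in bringing the D1 receptor to the cell surface, had ratios of 4.77 to 6.85, and the transcription factor gene Ebf1 had ratios of 2.49 to 2.996. The other 3 did not reach 2-fold in every set. They were the transcription factor gene Isl1 (1.59 to 2.02), the transcriptional coactivator gene Eya1 (0.998 to 1.45) and Sfxn1, a mitochondrial serine transporter gene (0.518 to 0.588).

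Among 7 listed genes of the indirect pathway, 4 were higher and 0 were lower, with a median ratio of 5.79. Drd2, the dopamine D2 receptor, stood at 406, 439, 360 and 313 CPM. Its ratio was 9.26 (8.97 to 9.56), 9.51 (9.16 to 9.88), 12.03 (11.6 to 12.5) and 9.43 (8.85 to 10.1) in sets 1 to 4. Penk, the enkephalin precursor, stood at 2746, 2716, 2667 and 3039 CPM, and its level moved least over the sets of the 20 genes highest in dorsal striatum spots, 1.14-fold between the lowest and the highest set. The orphan receptor genes Gpr6 and Gpr52 had ratios of 7.38 to 9.71 and 5.42 to 6.88. The transcription factor gene Sp9 had a ratio of 1.98 in set 2 and of 2.75 to 2.98 elsewhere. Gucy1a1, a subunit of soluble guanylate cyclase, had 1.74 in set 2 and 2.69 to 2.88 elsewhere, and the kainate receptor subunit gene Grik3 stayed between 0.957 and 1.20.

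**Figure D1:**
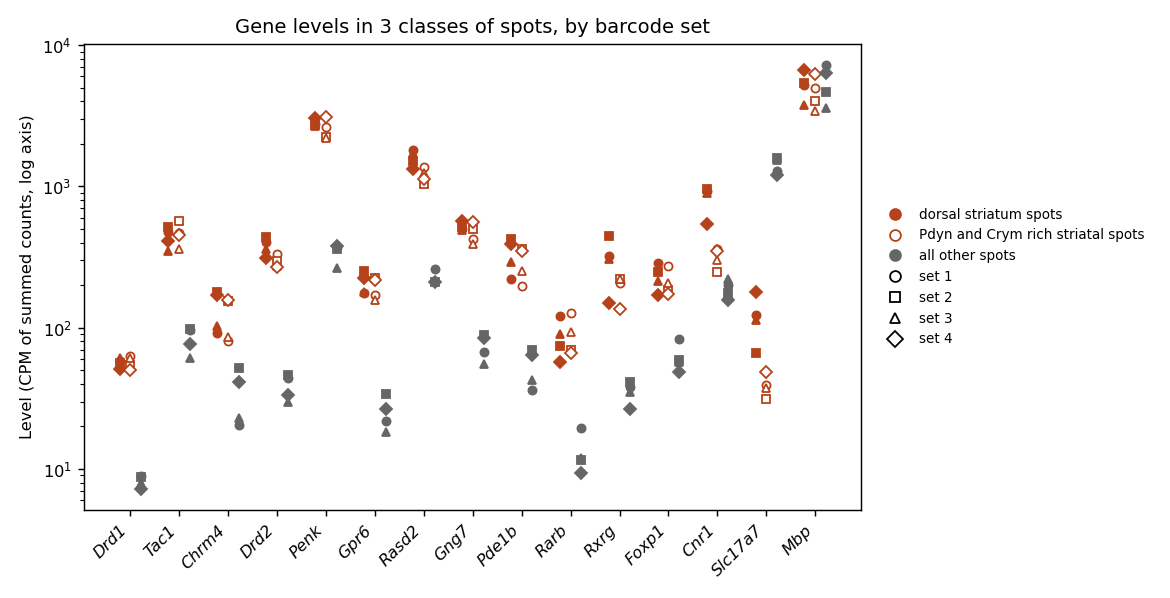
Level (CPM of counts summed over spots, log axis) of 15 genes in dorsal striatum spots (filled orange), Pdyn and Crym rich striatal spots (open orange) and all other spots (grey), with 1 marker shape for each of the 4 barcode sets. Drd1 lay at 50.7 to 61.1 CPM in the dorsal striatum spots of the 4 sets, Slc17a7 lay far below its level in the other spots, and levels are not compared between genes.

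All 9 signalling genes of spiny projection neurons that reached the minimum level were higher, with a median ratio of 6.13, and Pde7b (1.73 to 8.95 CPM) was below it. Rasd2 (Rhes), a small GTPase gene, had ratios of 6.26 to 7.95. Gnal, the G protein alpha subunit of striatal dopamine signalling, had ratios of 3.95 to 4.49, Gng7, its gamma partner, 5.78 to 8.75, and Adcy5 5.38 to 6.82. Pde1b, a calcium-dependent phosphodiesterase gene, had ratios of 6.03 to 6.77. Ptpn5, the striatal enriched tyrosine phosphatase (3.22 to 3.67), Rasgrp2, an exchange factor gene (5.62 to 6.70), and Arpp21, a phosphoprotein gene (2.98 to 3.61), were higher as well. The level of Ptpn5 still varied between sets, at 720, 1428, 643 and 1074 CPM, and Adcy5 did so at 576, 1011, 625 and 1149 CPM.

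Of 10 transcription factor genes of striatal neurons, 8 were higher and 0 were lower, with a median ratio of 3.33. Rxrg, a retinoid X receptor gene, stood at 319, 449, 308 and 150 CPM with ratios of 8.43, 10.9, 8.74 and 5.68. Set 4 was lowest in both, and its level interval (139 to 162 CPM) did not overlap those of the other sets. Rarb, the beta receptor for retinoic acid, stood at 120, 74.8, 90.3 and 57.6 CPM with ratios of 6.14, 6.42, 7.54 and 6.20. Foxp1 and Bcl11b (Ctip2), factors of spiny neuron development, had ratios of 3.49 to 4.17 and 3.79 to 5.58. Foxp2 had 2.34 to 2.63, Meis2 3.59 to 4.12, Zfp503 2.32 to 3.27 and Dlx6 2.44 to 3.32. Six3 (1.59 in set 4) and Dlx5 (1.96 in set 2) each missed 2-fold in a single set.

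Rarb is shown with its start because retinoic acid receptors act through a known type of element, 2 short repeats spaced by 5 bases. RefSeq (GRCm38.p6) gives 1 start for it, and the window of 250 bases before that start, on the minus strand, is chr14:16575477-16575726. The letters searched, on both strands, were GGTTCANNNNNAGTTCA, marked in capitals.
Rarb: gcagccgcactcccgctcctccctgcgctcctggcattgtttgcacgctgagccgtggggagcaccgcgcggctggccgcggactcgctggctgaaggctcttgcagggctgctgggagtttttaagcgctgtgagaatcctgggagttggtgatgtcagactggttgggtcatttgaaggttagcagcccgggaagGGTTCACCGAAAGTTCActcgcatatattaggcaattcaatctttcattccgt
The match begins 53 bases before the start. Only 2 of 32851 windows of this length in the RefSeq table (0.00609%) hold it. Of the 20 genes highest in dorsal striatum spots, 15 had a window, 21 windows in all, and Rarb alone among them had this match. A match describes these letters and is not evidence of a bound site.

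The 20 genes with the highest ratios, by their lowest value over the sets, included Lrrc10b, Ptpn7, Sh3rf2, Drd2, Gpx6, Syndig1l, Serpina9, Gpr6, Penk, Actn2, Itga5, Dach1, Drd1, Rasd2, Rarb, Pde1b, Gng7, Rxrg and Gprin3. Lrrc10b, a leucine-rich repeat gene, led with ratios of 11.6, 12.5, 14.0 and 10.7 at 207, 419, 236 and 466 CPM. Ptpn7, a tyrosine phosphatase gene, followed at only 15.9 to 31.3 CPM with ratios of 10.6 to 13.6. Gpx6, a glutathione peroxidase gene, was the least even over sets, at 6.53, 29.8, 38.4 and 6.36 CPM, a 6.05-fold range. The cytoskeletal gene Actn2 (7.26 to 9.22), the integrin gene Itga5 (6.84 to 9.44) and the transcription factor gene Dach1 (6.59 to 8.22) also stood high.

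The lowest 10 genes were Oxt, Arhgap36, AW551984, Slc30a3, Nrn1, Vwa5b1, Gpx3, Calb2, Tafa1 and Igfn1. All but Nrn1 stayed under 10 CPM in the dorsal striatum spots and passed the minimum through the other spots. Oxt, the oxytocin gene of hypothalamic neurons, had 0.616 to 2.76 CPM in dorsal striatum spots and ratios of 0.00247 to 0.00654. Calb2 (calretinin) had ratios of 0.00913 to 0.0495, and Slc30a3, the zinc transporter gene of cortical synaptic vesicles, had 0.0229 to 0.0450.

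**Figure D2:**
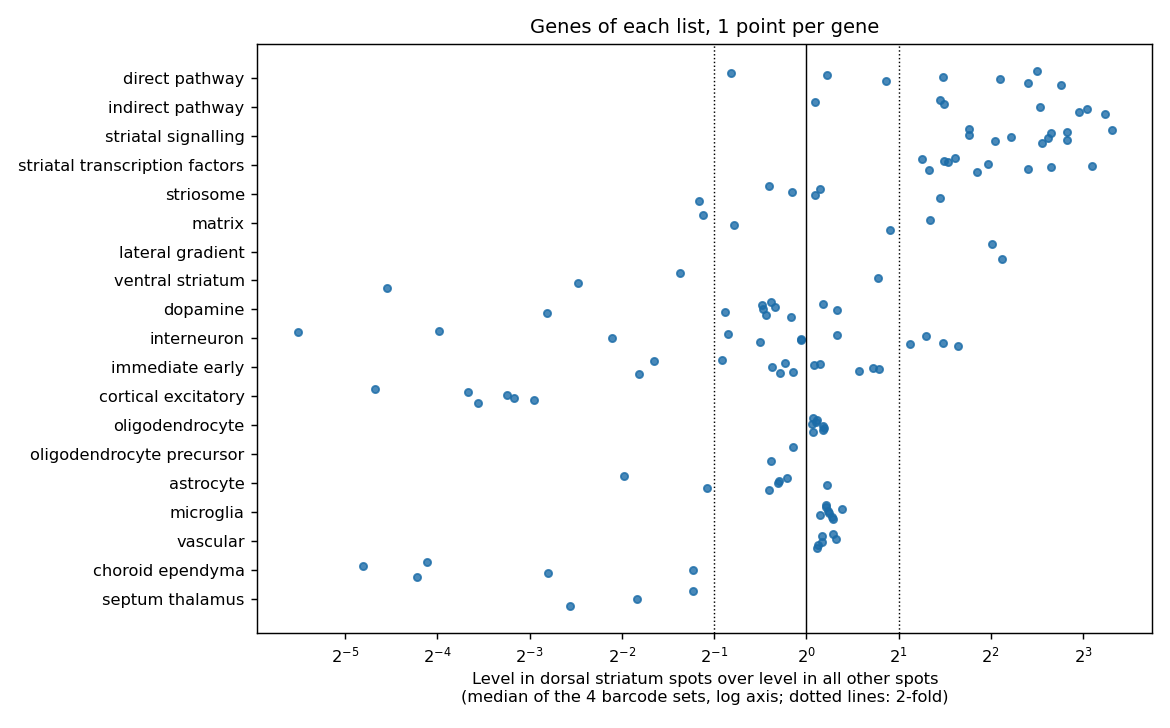
Ratio of the level in dorsal striatum spots to that in all other spots (median of the 4 barcode sets, log axis) for every gene of 19 lists, 1 point a gene, with dotted lines at 2-fold. Signalling and transcription factor genes of striatal neurons lie to the right, 6 of 6 cortical excitatory genes lie far to the left, and oligodendrocyte, microglia and vascular genes lie near 1.

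Markers of striatal compartments were less distinct. Striosomes, or patches, are islands rich in the mu opioid receptor within a surrounding matrix. Of 6 striosome genes, 1 was higher and 0 were lower, with a median ratio of 0.984. The gene that was higher was Kremen1, a Wnt co-receptor gene, at 2.20 to 3.04. Oprm1, the mu opioid receptor, was sparse at 19.0, 25.1, 20.2 and 17.2 CPM, with ratios of 0.335 to 0.726. Of 4 matrix genes, 1 was higher, the inhibitor of differentiation gene Id4 (417, 365, 501 and 587 CPM, ratios of 2.05 to 2.88). The ephrin receptor gene Epha4 had ratios of 1.80 to 2.02, Gda, a guanine deaminase gene, 0.369 to 0.749, and Sv2b, a synaptic vesicle gene, 0.434 to 0.530.

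Genes that mark the ventral striatum were mostly low against all other spots, a class that is not limited to ventral striatum. Their ratios to the Pdyn and Crym rich striatal spots are given below. Of 4, 0 were higher and 3 were lower, namely Dlk1 (1.88 to 3.57 CPM, ratios of 0.0369 to 0.0988), Peg10 (0.153 to 0.199) and Zcchc12 (0.287 to 0.421). Nts, the neurotensin gene, differed between sets, at 38.7, 11.5, 10.8 and 41.5 CPM with ratios of 2.41, 0.257, 1.03 and 2.55.

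Dopamine genes were near the floor of the assay, in a tissue that receives dopamine axons but holds few dopamine cell bodies. Of 10 listed, 4 reached the minimum level, and 0 of these were higher or lower, where 2.62% and 5.58% of all genes were. Th, tyrosine hydroxylase, stood at 9.79, 11.2, 6.07 and 11.9 CPM with ratios of 0.621 to 1.13. The dopamine transporter gene Slc6a3 was at 0.148 to 0.839 CPM and the vesicular transporter gene Slc18a2 at 0.791 to 2.54 CPM. Among the enzymes, Maoa stood at 23.1 to 27.4 CPM and Maob at 20.1 to 21.5 CPM. Ddc, which makes dopamine from its precursor, was at 5.49 to 6.99 CPM. Drd3, Drd4 and Drd5 were at 0.989 to 3.39 CPM, and differences between sets at such levels were not read.

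Celsr3 itself was detected in the dorsal striatum spots of all 4 sets. It stood at 30.7 (28.3 to 33.2), 42.5 (39.5 to 45.6), 24.7 (22.9 to 26.7) and 40.3 CPM (34.7 to 46.4) in sets 1 to 4. Sets 2 and 4 overlapped, and set 3 lay below set 1. Its ratio to all other spots was 0.964, 0.892, 0.943 and 0.847 by CPM, and 0.962 to 1.09 under RLE scaling, so its direction against the other spots depended on the scaling. These levels were not used to assign a genotype to a set. Of its relatives, Celsr2 stood at 182, 156, 183 and 153 CPM and Celsr1 at 3.39 to 5.09 CPM.

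Markers of other cell types were read next, over whole lists. Of all genes 2.62% were higher and 5.58% lower, so nothing is read from a list with 0 calls. Cortical excitatory genes were lower for 6 of 6, with a median ratio of 0.0952. Their summed level was 94.0 to 241 CPM in dorsal striatum spots and 1870 to 2341 CPM in all other spots, and 0 of the 6 were at 0. Of 8 oligodendrocyte genes 0 were called, with a summed level of 10122 to 14165 CPM inside and 9213 to 18693 CPM outside. In set 1 all 8 had ratios below 1 (0.718 to 0.799) and in sets 2 to 4 all 8 had ratios above 1 (1.03 to 1.35), also with TMM or RLE scaling. For 8 microglia genes 0 were called, with ratios of 1.06 to 1.39, and for 6 vascular genes, 4 of them at the minimum level, 0 were called. Of 7 astrocyte genes 1 was lower, the GABA transporter gene Slc6a11 (0.208 to 0.259). Gfap, which astrocytes of white matter and injury carry at high levels, ranged from 0.279 to 0.923. Pdgfra and Cspg4 of oligodendrocyte precursors had ratios of 0.736 to 0.955. For the septum and thalamus, Zic1 was lower (0.112 to 0.229), and Tcf7l2 and Gbx2 were at 0.721 to 7.32 CPM.

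Choroid plexus RNA was uneven between the sets. The 5 choroid plexus and ependyma genes summed to 703 CPM in the dorsal striatum spots of set 1, and to 10.8, 118 and 27.3 CPM in sets 2, 3 and 4. Nearly all of it was Ttr, the transthyretin gene of choroid plexus, at 696, 3.92, 114 and 13.6 CPM. In set 1 the 42 dorsal striatum spots with the most Ttr held 93.5% of its counts, and Ttr stood at 7698 CPM in them and 49.7 CPM in the remaining spots. Their median marker z was 1.75 against 1.85 in the remaining spots, and their Penk was 2459 against 2773 CPM. In all other spots the list summed to 8240, 37.4, 7336 and 666 CPM, and in the Pdyn and Crym rich striatal spots to 6766, 45.8, 6358 and 43.0 CPM. Sets 1 and 3 were the highest in all 3 classes of spots.

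The nearest other region was the striatal tissue rich in Pdyn and Crym, which are high in the ventral striatum. It comprised 1171 spots with a marker z of at least 0.8 and a mean z of Pdyn and Crym of at least 1, of which 299, 298, 263 and 311 lay in sets 1 to 4. The rule used this contrast too, so the values are descriptions. Of 9770 genes, 4 were higher (0.0409%) and 7 were lower (0.0716%) in the dorsal striatum spots in every set, from which nothing is read. Pdyn and Crym, which define the contrast, are 2 of the 7 lower genes. Listed genes of the direct and indirect pathways gave 0 calls of 8 and 0 of 7, with median ratios of 0.9001 and 1.13. The ventral striatum list gave 0 calls of 3 tested. Ratios there were 0.350 to 0.584 for Peg10, 0.453 to 0.650 for Zcchc12 and 0.439 to 1.03 for Nts. Dlk1, the gene of that list below the minimum level, was lowest, with ratios of 0.127 to 0.225. Drd1 had ratios of 0.933, 1.026, 1.009 and 1.009, and the counting intervals of the 4 sets lay between 0.855 and 1.19.

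The 4 genes that were higher were Nxph3, Ccn2, Robo3 and Slc17a7. Nxph3, a neurexophilin gene, stood at 17.3, 14.3, 21.0 and 27.3 CPM with ratios of 3.11, 3.17, 3.32 and 3.83. Ccn2, which with Nxph3 marks the deepest cortical layer, had ratios of 2.71, 2.75, 4.84 and 4.05. Slc17a7, the vesicular glutamate transporter of cortical neurons, had 3.12, 2.11, 3.02 and 3.67. In all 4 sets these 3 genes were still lower than in all other spots, at 0.302 to 0.622, 0.413 to 0.865 and 0.0414 to 0.148. Without the 10% of dorsal striatum spots highest in Slc17a7, the ratios to the Pdyn and Crym rich spots were 1.58 to 2.16 for Nxph3, 0.918 to 1.83 for Ccn2 and 0.630 to 1.28 for Slc17a7. Robo3, a receptor of axon guidance, was then the only 1 of the 4 still higher, at 4.09, 5.22, 5.08 and 2.17. That choice of spots was made after the data were seen.

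Cnr1, the cannabinoid receptor, and Gpr155, an orphan receptor gene, were listed as lateral genes. Cnr1 stood at 932 (919 to 946), 961 (947 to 976), 900 (888 to 911) and 543 CPM (522 to 564). Set 4 lay far below the other sets. Its ratio to the Pdyn and Crym rich spots was 2.57, 3.85, 2.98 and 1.55, and that of Gpr155 was 1.499, 2.33, 1.59 and 1.21. Further genes high by this measure were Cpne9 (1.67 to 3.81), Strit1 (1.57 to 4.69), the semaphorin gene Sema7a (1.56 to 2.50) and Tpm2 (1.51 to 3.04).

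Apart from Pdyn and Crym, the 10 lowest genes were Hist1h3b, Atp6v1c2, P2ry1, Col6a1, Syt10, Cpne6, Hist1h3c, Baiap3, Khdrbs2 and Sox11. The first listed 5 were lower by the 2-fold call. Among them Hist1h3b, Atp6v1c2 and P2ry1 stayed under 10 CPM in the dorsal striatum spots. They passed the minimum through the Pdyn and Crym rich spots, so nothing is read from their calls. P2ry1, a purinergic receptor gene, was at 9.74, 3.81, 8.58 and 5.30 CPM with ratios of 0.289, 0.218, 0.270 and 0.239. Hist1h3b, a replication-dependent histone gene, was at 2.82, 3.02, 4.59 and 4.24 CPM with ratios of 0.103, 0.1001, 0.195 and 0.268. Hist1h3c was at 4.25, 0.336, 4.71 and 1.48 CPM, from only 6 counts in set 2, and the 2 histone genes are close copies whose probes may share targets. Syt10, a synaptotagmin gene, had ratios of 0.247 to 0.451, and Sox11, a factor of immature neurons, had 0.308 to 0.546.

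Within the dorsal striatum spots, variation from spot to spot was concentrated in few genes. For each gene of at least 50 CPM, the variance over spots beyond counting noise was divided by the squared mean. Over 3906 genes its median was 0.0385, and 90% of genes lay below 0.0971. By the lowest value over the 4 sets, the 10 most variable were Slc17a7, Sst, Npy, Cck, Ecel1, Nnat, Igfbp4, Hapln2, Marcksl1 and Tmem88b. Slc17a7 had 4.94, 8.10, 5.601 and 5.44, Sst 2.58, 2.64, 2.74 and 3.16, and Npy 2.33, 2.95, 2.56 and 3.02 in sets 1 to 4. Cck, a peptide gene of cortical neurons and interneurons, had 2.23 to 5.06, and Hapln2 and Tmem88b, 2 oligodendrocyte genes, had 0.658 to 1.21.

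**Figure D3:**
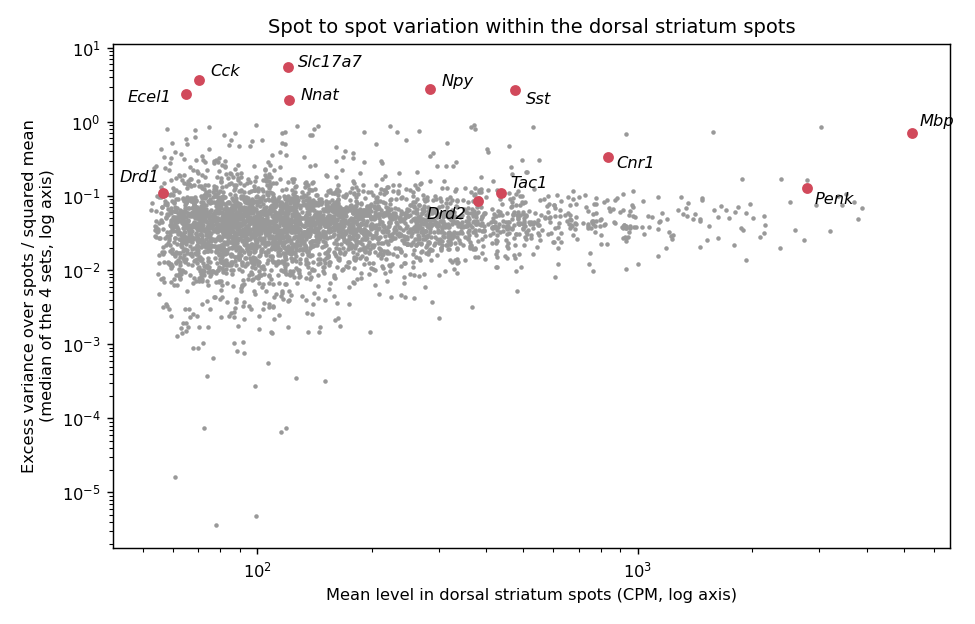
Variance over dorsal striatum spots beyond counting noise, divided by the squared mean (median of the 4 sets, log axis), against the mean level in CPM (log axis), 1 point a gene for 3906 genes. Slc17a7, Cck, Npy, Sst and Ecel1 lie at the top, while Drd1, Drd2 and Tac1 lie near 0.1; 288 genes at or below 0 cannot be drawn on this axis.

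Sst and Npy, peptides of a single class of striatal interneuron that also makes nitric oxide with Nos1, lay in the same spots. Over the spots of a set their rank correlation was 0.836, 0.807, 0.701 and 0.771 (420, 523, 646 and 200 spots, which share a library and differ in depth). The 10% of spots with the most Sst held 49.6, 51.9, 51.9 and 53.4% of its counts and 9.30 to 9.99% of all counts. The same spots held 41.6, 48.4, 42.0 and 47.0% of the Npy counts and 34.2 to 41.6% of those of Nos1. Penk in these spots stood at 2347, 2548, 2612 and 2601 CPM against 2789, 2734, 2673 and 3084 CPM in the remaining spots.

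The total level of Sst differed between sets, at 408, 672, 221 and 599 CPM, and Npy did not follow the same order, at 320, 206, 186 and 427 CPM. Of 12 interneuron genes, 10 reached the minimum level, of which 1 was higher than in all other spots and 3 were lower. The higher gene was Chat, which makes acetylcholine, at 17.01, 20.4, 14.9 and 14.8 CPM with ratios of 3.70, 3.15, 3.13 and 2.21. Its vesicular transporter gene Slc18a3 had ratios of 1.84 to 3.12, and the rank correlation of both over spots was 0.545, 0.400, 0.378 and 0.551. The lower genes were Pvalb (0.190 to 0.308), the parvalbumin gene of fast-spiking interneurons, Calb2, and the peptide gene Vip (0.0465 to 0.124). Calb2 and Vip stayed under 10 CPM in the dorsal striatum spots and passed the minimum through the other spots.
Sst is shown with its start because a cyclic AMP response element is known there. The RefSeq window of 250 bases before its start, on the minus strand, is chr16:23890845-23891094 (GRCm38.p6), and the letters TGACGTCA, which read the same on both strands, are in capitals.
Sst: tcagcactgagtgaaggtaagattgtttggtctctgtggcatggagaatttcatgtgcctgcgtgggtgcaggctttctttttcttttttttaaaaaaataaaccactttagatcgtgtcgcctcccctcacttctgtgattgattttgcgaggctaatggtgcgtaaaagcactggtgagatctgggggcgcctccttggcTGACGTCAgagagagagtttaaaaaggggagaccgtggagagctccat
The match begins 48 bases before the start, and 508 of 32851 windows (1.55%) hold these letters.

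Slc17a7 counts lay in few spots. The 10% of dorsal striatum spots with the most Slc17a7 held 65.8, 72.7, 66.5 and 68.3% of its counts, at 953, 560, 904 and 1295 CPM against 46.2, 19.8, 41.3 and 62.2 CPM in the remaining spots. Their median marker z was 1.35, 1.51, 1.45 and 1.13, against 1.87, 1.82, 1.85 and 1.75. In them Penk was lower, at 1604, 1972, 1568 and 2021 CPM against 2852, 2785, 2766 and 3144 CPM. The cortical factor gene Neurod2 stood at 34.8, 26.1, 41.6 and 97.0 CPM in these spots and at 1.95, 1.90, 2.28 and 4.91 CPM in the remaining ones. Ccn2 stood at 133, 190, 141 and 266 CPM in these spots and at 7.94, 7.84, 6.79 and 18.2 CPM in the remaining ones. Levels of Mbp were 7201, 8917, 4072 and 8724 CPM in these spots and 4987, 5104, 3708 and 6507 CPM in the remaining ones.

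Genes of the 2 pathways were compared over spots by rank correlation. The rank correlation of Drd1 with Drd2 was 0.12, -0.04, 0.00 and 0.01, and that of Penk with Tac1 was -0.11, -0.25, -0.002 and 0.17. Penk and Drd2, both of the indirect pathway, had 0.45, 0.44, 0.38 and 0.45. Tac1 and Drd1, both of the direct pathway, had 0.15, 0.12, 0.12 and 0.20, with Drd1 sparse. Counting noise lowers the correlations of a sparse gene, so how the pathways mix within spots cannot be read from those of Drd1.

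Cnr1 varied from spot to spot within the dorsal striatum spots. Its variance beyond counting noise, divided by the squared mean, was 0.191 to 0.496, where 90% of genes lay below 0.0971. The spots of each set were ordered by Cnr1 and divided into 4 equal groups. Its own level in the highest group was 4.74 to 6.36 times that in the lowest, a difference that the ordering by itself creates in part. The order is one of level, and the positions of the spots were not used. The genes with the most similar pattern, by the median rank correlation over the sets, included Rgs4, Nrgn, Pcp4, Hpca, AI593442, Nefm, Gpr155, Rgs7bp and Kctd17. Rgs4, a regulator of G protein signalling, had 0.80, 0.82, 0.68 and 0.65. Nrgn (neurogranin), a calmodulin binding protein gene, had 0.84, 0.81, 0.65 and 0.64, and the calcium sensor gene Hpca had 0.76, 0.67, 0.63 and 0.55. The highest group over the lowest was 1.92 to 2.53 for Rgs4, 1.96 to 3.05 for Nrgn and 1.94 to 3.23 for Nefm, a neurofilament gene. The 5 genes with the most opposite pattern were Pnmal2, Marcks, Celf4, Ly6h and Hpcal4, with median correlations of -0.52 to -0.47. Marcks, a substrate of protein kinase C, stood at 286, 493, 269 and 431 CPM in the lowest group and at 159, 202, 135 and 269 CPM in the highest.

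Genes of both pathways differed less along this order than Rgs4 or Nrgn. The highest group over the lowest was 1.15 to 1.52 for Drd1, 1.35 to 1.43 for Drd2, 1.08 to 1.26 for Penk and 1.21 to 1.35 for Tac1. Rxrg followed Cnr1 in sets 1 and 2 (0.68 and 0.66), less in set 3 (0.42), and 0.15 in set 4, while Rarb had 0.00 to 0.05. The matrix gene Id4 had -0.42, -0.65, -0.35 and 0.03, and Gda had -0.52, -0.41, -0.35 and -0.11. Wfs1, chosen for display after its values were seen, stood at 225, 115, 166 and 144 CPM in the lowest group and 56.5, 24.7, 81.3 and 111 CPM in the highest. Set 4 had the fewest spots, the lowest counts per spot and the weakest change of Rxrg, Id4, Gda and Wfs1 along this order. Depth and white matter moved with Cnr1. The rank correlation of Cnr1 with the total count of a spot was 0.32, 0.39, 0.19 and 0.32. With Mbp, the myelin basic protein gene, it was -0.37, -0.42, -0.41 and -0.36. The part of either in these patterns was not tested.

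**Figure D4:**
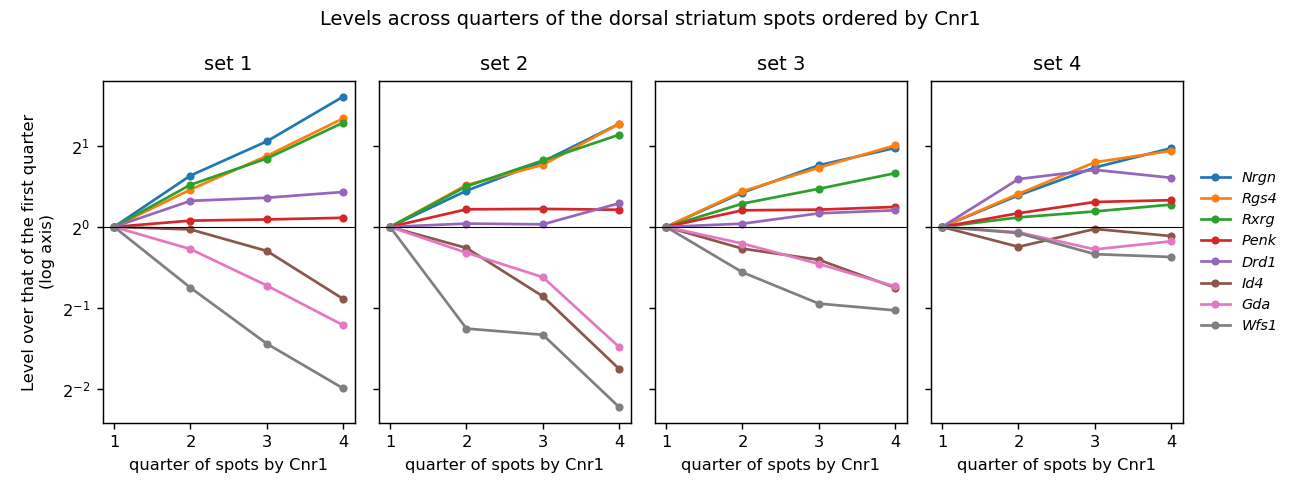
Levels of 8 genes in the dorsal striatum spots of each barcode set, ordered by Cnr1 and divided into 4 groups, as a ratio to the group with the least Cnr1 (log axis). Nrgn, Rgs4 and Rxrg lie above 1, and in the highest group Penk and Drd1 lie nearer 1 than Nrgn and Rgs4. In the highest group of set 4, Rxrg (1.21) lies nearer 1 than Penk (1.26) and Drd1 (1.52). Id4, Gda and Wfs1 lie below 1 in sets 1 to 3 and less so in set 4, where the highest group of Id4 is at 0.925 of the lowest.

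Mobp, Fth1, Cnp, Plekhb1, Trf, Mag, Cldn11, Mog and Gatm were among the 10 genes whose pattern over spots was most like that of Mbp. Mobp, a myelin protein gene, had correlations of 0.93, 0.96, 0.90 and 0.94. Fth1, the ferritin heavy chain, had 0.82, 0.85, 0.77 and 0.82, and Trf, transferrin, had 0.80, 0.79, 0.72 and 0.79. Trf stood at 145, 96.6, 185 and 164 CPM in the group of spots with the least Mbp and at 716, 705, 665 and 1107 CPM in that with the most. The 5 genes with the most opposite pattern were Hpca, Snap25, Rgs4, Ppp3ca and Pcp4, all of neurons, with medians of -0.53 to -0.46. Penk in the group with the most Mbp was 0.660 to 0.758 of its level in the group with the least. Levels are shares of a spot's counts, so the levels of different genes in a spot are not independent. The rank correlation of Mbp with the total count of a spot was -0.31, -0.46, -0.36 and -0.46, and its part was not tested.

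For Oprm1 no clear pattern could be read over spots. The gene was at 17.2 to 25.1 CPM, so that its counts per spot were few, and the highest median correlation was 0.25, for the RNA binding protein gene Celf4. Stmn2, Gap43, Nap1l5 and Basp1 followed at 0.23 to 0.25. Its most opposite genes were Pcp4 at -0.37 and Nefm at -0.33.

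The sets were then compared within the dorsal striatum spots alone, with each set a library and not a replicate. Of 9687 genes, 1156 differed at least 2-fold between the lowest and the highest set (11.9%), and the median range over all genes was 1.43-fold. Sets 1 and 3 were closest, with 44 genes 2-fold apart, then sets 2 and 4 with 104. The other pairs had 458 to 711. Of listed genes of the direct pathway 0 of 8 ranged 2-fold, of the indirect pathway 1 of 7 (Sp9), of transcription factors 4 of 10 and of microglia 1 of 8.

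Immediate-early genes, which neurons switch on within minutes of activity, had the widest range of the lists with more than 1 gene tested. Of 9 that reached the minimum level, 7 ranged at least 2-fold, against 11.9% of all genes, with a median range of 3.46-fold. Fos, a subunit of the AP-1 factor, stood at 5.73 (4.74 to 6.88), 23.2 (21.0 to 25.5), 2.28 (1.74 to 2.93) and 23.5 CPM (19.4 to 28.3). Sets 2 and 4 overlapped, and set 3 lay below set 1. Arc, a synaptic plasticity gene, stood at 135, 340, 80.4 and 312 CPM, and the orphan nuclear receptor gene Nr4a1 at 75.6, 169, 40.6 and 174 CPM. Egr1, a zinc finger factor gene, did not follow this order, at 404, 547, 381 and 290 CPM.

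Over the 12 listed genes, set 3 was lowest for 11, and set 2 was highest for 5 and set 4 for 7. Set 3 was likewise lowest for 11 with TMM or RLE scaling, where set 2 was highest for 9 and set 4 for 3. Over all 9687 genes set 3 was lowest for 21.2%, set 2 was highest for 18.7% and set 4 for 25.9%. Sets 1 and 3 were also the lowest in the other classes of spots. The summed level of the list was 781, 1431, 623 and 1105 CPM in dorsal striatum spots, 793, 1433, 643 and 1220 CPM in the Pdyn and Crym rich spots, and 588, 1319, 554 and 1405 CPM in all other spots. Dorsal striatum spots of sets 2 and 4 had fewer counts than those of sets 1 and 3, and the part of depth in this order was not tested.

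**Figure D5:**
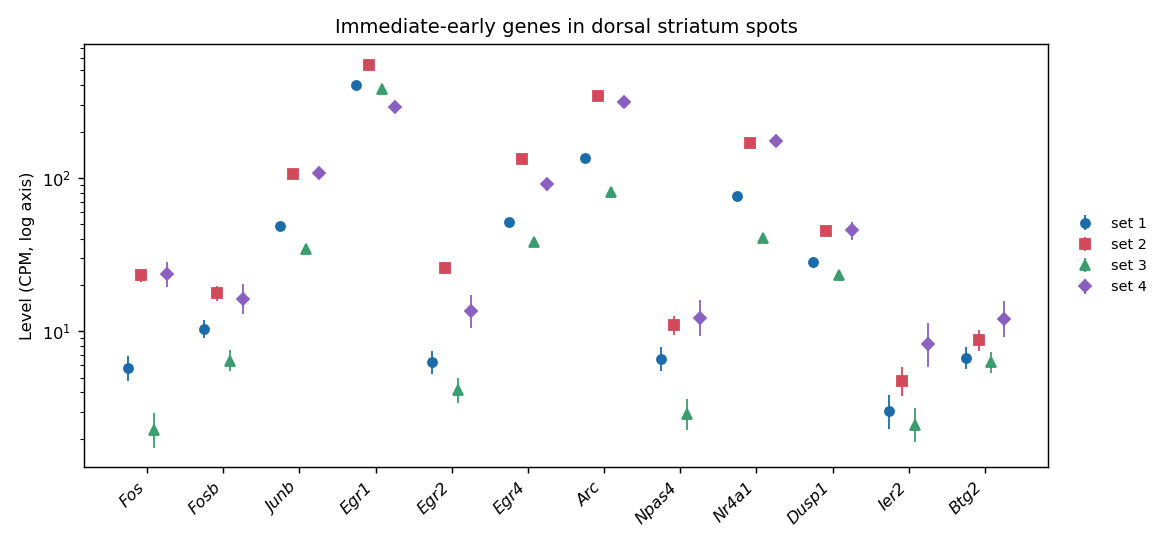
Level (CPM, log axis) of 12 immediate-early genes in the dorsal striatum spots of each barcode set, with bars for exact 95% Poisson intervals of the summed count. Set 3 is lowest for 11 genes, and Egr1, with set 4 lowest at 290 CPM, is the exception.

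Against all other spots, 0 of the 11 immediate-early genes tested were higher and 2 were lower, where 2.62% and 5.58% of all genes were. Fos, at ratios of 0.332, 0.314, 0.216 and 0.256, and Ier2, at 0.208 to 0.345, were the lower genes. Ier2 stayed under 10 CPM in the dorsal striatum spots and passed the minimum through the other spots. Egr1 had ratios of 1.60, 1.46, 1.505 and 1.013. Against the Pdyn and Crym rich spots 0 of 10 were called, with Fosb at 0.538 to 0.678 and Arc at 1.04 to 1.11. Of all genes 0.0409% were higher and 0.0716% lower there, so nothing is read from these 0 calls.

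Nr4a1 is shown with its start since cyclic AMP response elements are known in this window. It is chr15:101266596-101266845 on the plus strand (RefSeq, GRCm38.p6), 250 bases before the start, with each match of TGACGCA on either strand in capitals.
Nr4a1: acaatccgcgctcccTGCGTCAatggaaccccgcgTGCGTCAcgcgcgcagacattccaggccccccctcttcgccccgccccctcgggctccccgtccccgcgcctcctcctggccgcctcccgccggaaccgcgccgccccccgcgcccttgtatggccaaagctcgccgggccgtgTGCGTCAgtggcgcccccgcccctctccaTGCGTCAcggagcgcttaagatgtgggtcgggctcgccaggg
It holds 4 matches, the farthest 235 bases before the start, and 574 of 32851 windows (1.75%) hold at least 1. Of the 12 immediate-early genes 9 had a window, 13 windows in all, of which Fosb and Nr4a1 had this match and Btg2 and Dusp1 had TGACGTCA.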

How the data were processed

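The values are counts as the authors deposited them, not normalised, of 19465 genes in 12602 spots. Space Ranger and Seurat were used, per the submitters' processing notes; their versions, the genome build, the probe set and spot filters are not given in the sources used here. The assay counts probes, so levels are not compared between genes. Spots under 500 counts were left out (1 spot). The z-scores for the rule ran over all kept spots. Counts were summed over the spots of a class and set and divided by all counts there (CPM). Dorsal striatum spots summed to 20227658, 17869601, 26349139 and 4718157 counts in sets 1 to 4. Ratios set a count under 3 to 3 for calls.

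Intervals were exact Poisson for levels, Clopper-Pearson for shares and conditional binomial for ratios. Named genes were those of 20 lists, the 20 highest and 10 lowest against other spots, the 10 highest and 10 lowest against Pdyn and Crym rich spots, the 10 most variable over spots, the 10 with the widest range over sets, and the 10 most and 5 least alike in pattern to Cnr1, Oprm1 and Mbp. The members and lists were chosen with earlier results of these data known. The alternatives were thresholds on z of 0.6 and 1, z within each set, each set left out, 2000 counts per spot, thinning to 10000 counts, no gene filter, thresholds of 0.5 and 1.5 for Pdyn and Crym, and TMM and RLE scaling (edgeR 4.0.16 in R 4.3.3). Steps were tested on simulated data. Sex-linked genes were left out, and some genes that the rule names are not reported here. Other steps used Python 3.11.15, numpy 2.4.6, scipy 1.17.1, pandas 2.3.3 and matplotlib 3.10.9.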

Additional observations from a re-analysis of the deposited data

Results flagged for a closer look

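The summed level of the 5 choroid plexus and ependyma genes in the dorsal striatum spots of set 1, 703 CPM, stood far from the other sets. The 4 values had a lowest of 10.8, a median of 72.9 and a highest of 703 CPM, and the gap of set 1 to the nearest other set was 0.844 of the whole range, more than Dixon's test allows at 95% for 4 values. This was looked for in 21 quantities, the shares and list sums among them, and chance gives about 1 in 20.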

How the results depend on the processing

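The share of dorsal striatum spots moved beyond its counting interval with z-scores taken within each set, to 12.2% in set 1, 17.04% in set 3 and 9.11% in set 4, and with thinning to 10000 counts, to 15.7, 20.3, 20.5 and 7.87% in sets 1 to 4. With each set left out in turn it was 6.22 to 7.13% in set 4. With no filter on low genes 588 genes were higher and 1049 lower than all other spots, 10 and 60 than the Pdyn and Crym rich spots, and 8533 differed 2-fold between sets. The comparison with the Pdyn and Crym rich spots rested on few genes. A threshold of 0.5 on Pdyn and Crym gave 2 higher, and one of 1.5 gave 7 higher and 17 lower. Without the spots highest in Slc17a7, chosen after seeing the data, 1 was higher and 11 lower. Leaving out a set, also added after seeing the data here, gave 9 to 24 lower, the latter without set 4, and 741 to 931 genes 2-fold apart, the former without set 4. TMM and RLE raised the ratio to all other spots by 0.09 to 0.16 and 0.17 to 0.18 on the log2 scale, and gave 322 higher with 484 lower and 357 higher with 430 lower in place of 263 and 561. Other counts stayed within 1.5 times. Single ratios to all other spots were followed for the listed and named genes, apart from those named for their pattern over spots. Over the settings 5869 such values kept within their counting interval and 1907 did not. Among them no ratio of a called gene changed direction, but ratios near 1 did, such as Celsr3 in set 1 (0.964 by CPM, 1.09 by RLE). The remaining called genes, and ratios to the Pdyn and Crym rich spots, were not followed singly.

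No paired analysis was possible because barcode sets could not be tied to mice. For the same reason the planned genotype test with edgeR was not run. Variants of it with DESeq2, with the replicate block or without each replicate were not run either. Set 4, with the fewest counts, limits what can be read of genes under 10 CPM.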

Other observations

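Some genes were nearly absent from the dorsal striatum spots of 1 or more sets. Amd1, an enzyme gene of polyamine synthesis, stood at 26.0, 14.3 and 46.6 CPM in sets 1, 2 and 4 and had 0 counts in set 3, at least 410-fold between the sets with 3 counts as the floor. Zfp180 stood at 53.6 CPM in set 1 and 0.112, 1.33 and 0.636 CPM in sets 2 to 4, and Tmem267 at 48.9, 0.504, 35.5 and 30.7 CPM. Gm4737 stood at 0.148, 0.336, 39.7 and 16.1 CPM, Gm10260 at 2.37, 136, 140 and 281 CPM, and Olfr305 at 15.5, 8.90, 36.5 and 0.636 CPM. H2-D1, a class I histocompatibility gene, stood at 21.4, 10.6, 19.4 and 0.636 CPM, and Dusp14, a phosphatase gene, at 1.09, 35.5, 1.29 and 22.04 CPM. For these 8 genes the ratio to all other spots of the same set lay between 0.501 and 1.95 wherever the dorsal striatum spots held at least 10 CPM.

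Hbb-bs, a beta globin gene of red blood cells, stood at 10.5, 8.06, 1.52 and 62.1 CPM. In sets 1, 2 and 4 the 10% of spots with the most of it held 100, 98.6 and 64.8% of its counts. The alpha globin gene Hba-a2 stood at 20.8, 23.0 and 231 CPM in these spots and at 1.16, 1.88 and 23.1 CPM in the remaining ones.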
